A study of Rattus norvegicus with 10 samples.

Results

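The genes followed here build, carry and unload the lipoproteins that leave the liver, and comprise 5 apolipoproteins (Apoa1, Apoa4, Apoa5, Apob, Apoc3), the assembly factor Mttp, the lipases Lipc and Lpl, and the lipase inhibitor Angptl4. The members are the genes of this named list, taken with all of their annotated probe sets. The list was chosen with earlier results of these data known. All 9 of the 9 listed genes were found, on 10 probe sets of the 31042 on the array outside the manufacturer's controls, out of 14217 genes that could be followed. Apob has 2 probe sets and each other member has 1, and 0 of them is shared with another gene.

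The livers came from female Harlan Sprague-Dawley rats in 2 groups, each of 5 samples on 1 array apiece. The I3C group received indole-3-carbinol, a compound of cruciferous vegetables that gives rise to ligands of the aryl hydrocarbon receptor, dosed at 300 mg per kg on 5 days a week by gavage, with corn oil as carrier. The vehicle group received corn oil by the same route (0 mg per kg), so that oil is common to both groups. The labels give 13 weeks of dosing, and the series' design text a study of longer duration. The labels tie no sample to a numbered animal, and p-values therefore measure the spread between these samples, which may in part be technical.

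As background, hepatocytes join triglyceride to apolipoprotein B inside the endoplasmic reticulum, a step that needs the microsomal triglyceride transfer protein encoded by Mttp, and export the product as very low density lipoprotein (VLDL). Lipoprotein lipase (Lpl) removes the triglyceride in the capillaries of muscle and fat. Hepatic lipase (Lipc), which hepatocytes secrete onto the sinusoidal surface, trims triglyceride and phospholipid from remnants and from high density lipoprotein (HDL). Apolipoproteins A-V and C-III act on lipoprotein lipase in opposite senses, the former raising its activity and the latter lowering it, and ANGPTL4 is a secreted inhibitor of the same enzyme. Apolipoprotein A-I is the main protein of HDL.

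Values are log2 expression, so that a difference of 1 is a doubling, and "rose" and "fell" are kept for genes whose limma p-value, adjusted by Benjamini-Hochberg over all 31042 probe sets, was under 0.05. Array medians lay between 6.21 and 6.29, and 1 array, vehicle 5, was far from its group on principal component 2 (-47.8, where the lowest of the other 4 was 0.395). The gap between the 3' and 5' probe sets of the GAPDH control, a measure of RNA integrity, was 0.32 to 0.65 in vehicle arrays and 0.16 to 0.29 in I3C arrays (exact permutation p = 0.00794, two-sided, the smallest that this design can give, and 0.0159 adjusted over 2 measures). That of beta-actin was 1.45 to 1.74 against 1.17 to 1.53 (exact permutation p = 0.0476, and 0.0476 adjusted). Where the call of a named member or list gene ended with either gap in the model, this is stated beside the result. The GAPDH gap did not overlap between the groups, so a call kept or lost with it cannot separate RNA integrity from treatment. The labelled tissue matched its markers: albumin (Alb) was at 15.11 in both groups, close to the highest value on any array (15.12). Of 12 measured hepatocyte genes 1 rose, 0 fell and the median difference was -0.02. Most of them lay near the top of the range, where differences are compressed. The risen gene was Tat, an enzyme of tyrosine breakdown (0.93 ± 0.16, SE), which did not pass with the GAPDH or beta-actin gap. In whole liver, fewer cells of a type and less RNA per cell cannot be told apart.

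Transcripts of hepatic lipase (Lipc) and of the lipase inhibitor Angptl4 were lower after I3C, and that of apolipoprotein A-I (Apoa1) was higher. Apob and Mttp, the genes that start a VLDL particle, did not pass the test. Of the 9 members 1 rose (Apoa1) and 2 fell (Lipc, Angptl4). Over all 14217 genes 6.43% were called, 3.32% as risen and 3.11% as fallen, and over all probe sets 4.79% were called. The members' 3 of 9 genes, or 3 of 10 probe sets, is a higher share. The list is short and was chosen with earlier results of these data known, and the share was not tested. Groups did not overlap for 5 members, Apoa1, Apob, Apoc3, Lipc and Angptl4, where 8.67% of all genes had no overlap. The median difference over all genes was 0.00.

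**Figure D1:**
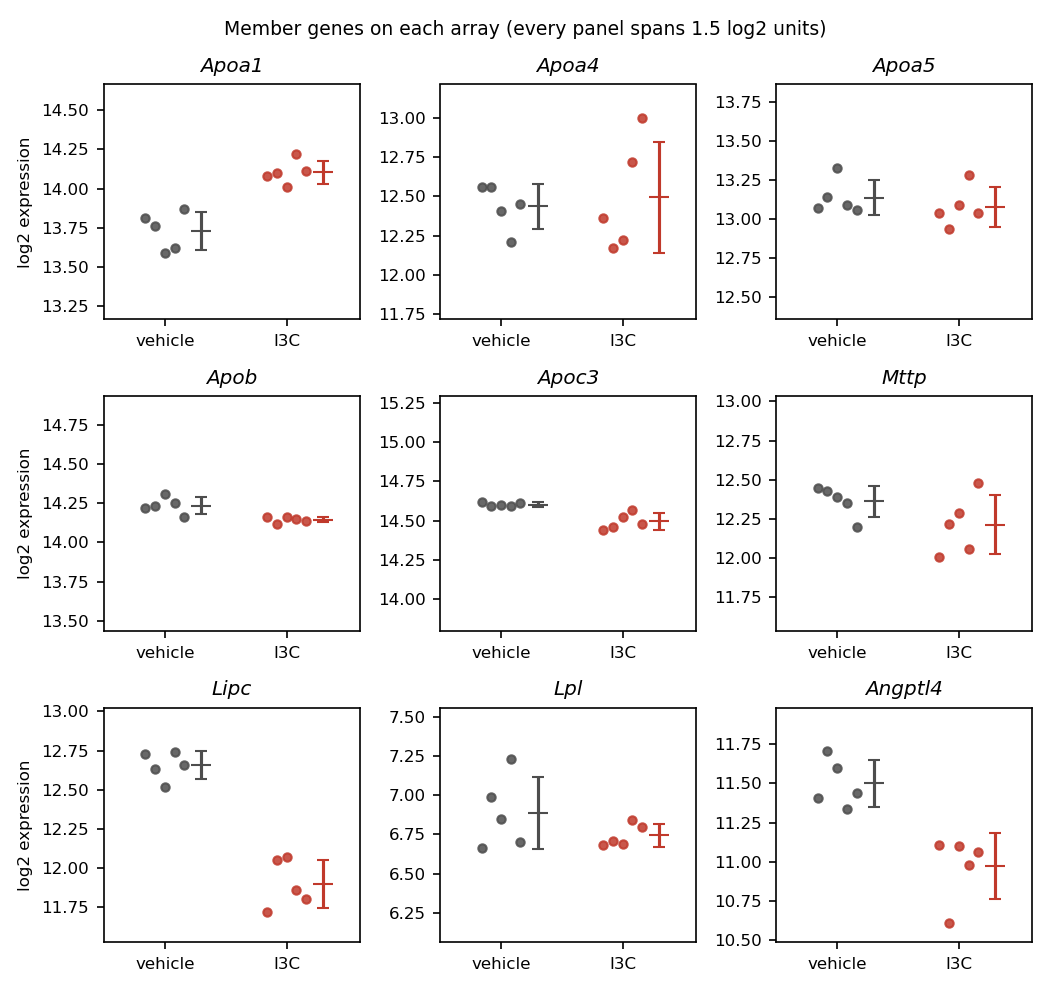
Log2 expression of the 9 member genes on each array, in vehicle (grey) and I3C (red) livers, with points for single arrays and a bar for the mean ± SD (n = 5). Every panel spans the same 1.5 log2 units, so that heights compare between panels. Lipc and Angptl4 lie lower and Apoa1 higher in I3C livers without overlap, and Apoa4 spreads wider in I3C livers (SD 0.35) than in vehicle livers (SD 0.14).

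**Figure D2:**
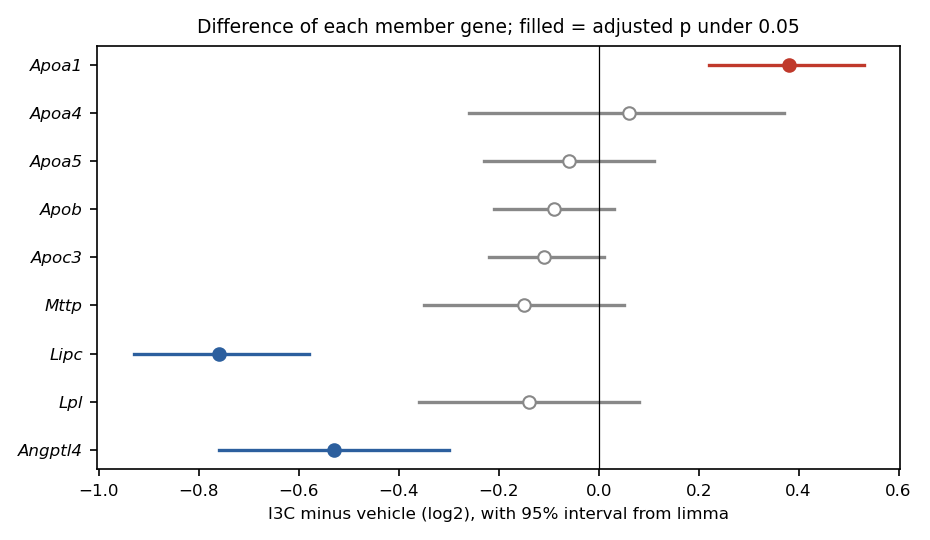
Difference of each member gene between I3C and vehicle livers on the log2 scale (points) with its 95% interval from limma (lines). Filled points mark an adjusted p under 0.05. The 3 filled genes are Apoa1 at 0.38, Lipc at -0.76 and Angptl4 at -0.53, and all 6 open intervals include 0.

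Lipc, which encodes hepatic lipase, had the largest difference of the 9. Its vehicle values were 12.73, 12.63, 12.52, 12.74 and 12.66 on arrays 1 to 5. Its I3C values were 11.72, 12.05, 12.07, 11.86 and 11.80. All 5 I3C livers lay below all 5 vehicle livers, and 0.45 separated the highest I3C value from the lowest vehicle value. The mean went from 12.65 ± 0.09 (SD, n = 5) to 11.90 ± 0.15 (SD, n = 5). Lipc thus fell by 0.76 ± 0.08 (SE, limma adjusted p = 0.000192), to 59.2% of the vehicle level, with a 95% interval from -0.93 to -0.58. By p-value Lipc was 60th of the 14217 genes. The call held with the GAPDH gap in the model (-0.69 ± 0.13, SE, limma adjusted p = 0.034), where 1.6% of all genes were called. It also held with the beta-actin gap and without any 1 array, with differences from -0.80 to -0.71 in the latter.

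The DNA before the start of the 2 fallen genes, Lipc and Angptl4, is shown because these 2 members moved the same way. The windows, from RefSeq on build GRCr8, run from 250 bases before to 50 bases after an annotated start and were available for 4 of the 9 members (Apoa4, Apoa5, Lipc, Angptl4). A set of 5 short motifs was searched on both strands and matches are in capitals: the nuclear receptor half-site AGGTCA, the HNF1 motif GTTAATNAT, the core GCGTG bound by the aryl hydrocarbon receptor, the TATA box TATAAA and the FOXO motif TGTTTAC. The HNF1 motif was added after the Lipc sequence had been read. The Lipc window is on the minus strand at chr8:80516236-80516535 and that of Angptl4 on the minus strand at chr7:15258632-15258931.
Lipc: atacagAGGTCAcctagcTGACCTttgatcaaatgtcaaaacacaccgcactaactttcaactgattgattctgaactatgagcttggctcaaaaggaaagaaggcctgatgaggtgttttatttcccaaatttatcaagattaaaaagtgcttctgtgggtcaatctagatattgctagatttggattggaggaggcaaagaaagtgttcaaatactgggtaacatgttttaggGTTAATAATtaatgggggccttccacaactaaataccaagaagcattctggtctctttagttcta
Angptl4: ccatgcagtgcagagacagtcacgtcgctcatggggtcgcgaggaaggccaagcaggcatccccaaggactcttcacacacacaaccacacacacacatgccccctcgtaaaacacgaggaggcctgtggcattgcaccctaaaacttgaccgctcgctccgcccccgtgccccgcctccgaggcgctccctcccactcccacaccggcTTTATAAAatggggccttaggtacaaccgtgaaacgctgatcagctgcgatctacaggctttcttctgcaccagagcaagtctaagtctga
In the Lipc window AGGTCA occurs once on each strand, 244 and 232 bases before the start, and GTTAATNAT occurs 15 bases before the start. Of 33469 RefSeq windows of the same length, 16.2% hold AGGTCA and 0.747% hold GTTAATNAT. In the Angptl4 window TATAAA occurs once on each strand in overlapping letters, 41 and 39 bases before the start, and 14.2% of windows hold it. GCGTG (29.7% of windows) and TGTTTAC (3.78%) are in neither window. The Apoa5 window, not printed, holds AGGTCA 103 and TATAAA 30 bases before one of its 2 annotated starts. A match in letters does not show that a factor binds there.

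The other lipase gene, Lpl, did not pass. Its vehicle mean of 6.88 was not far above the array medians, at the 60.3rd percentile of vehicle levels. Its vehicle values were 6.66, 6.99, 6.85, 7.23 and 6.70 and its I3C values 6.68, 6.71, 6.69, 6.84 and 6.80. All I3C values lay inside the vehicle range, which vehicle 4 widened at the top. The difference was -0.14 ± 0.10 (SE, limma adjusted p = 0.583), with a 95% interval from -0.36 to 0.08. In adult liver Lpl is known from Kupffer cells and other non-hepatocytes more than from hepatocytes. Of 10 measured macrophage and Kupffer cell markers 0 rose, 2 fell and 9 were lower, with a median difference of -0.34. Their mean level was 9.62 to 9.98 on vehicle arrays and 9.23 to 9.64 on I3C arrays, and the fallen genes were C1qa (-0.37 ± 0.08, SE) and Cd5l (-0.52 ± 0.12, SE). C1qa was not called without vehicle 1 or I3C 5, Cd5l was called without only vehicle 3, vehicle 5, I3C 2 or I3C 3, and with the GAPDH gap neither was called, nor Cd5l with the beta-actin gap. Their part in the Lpl value was not tested.

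Angptl4, whose protein inactivates lipoprotein lipase and whose gene is a known target of the fatty acid receptor PPAR alpha, fell. Its vehicle values were 11.41, 11.71, 11.60, 11.34 and 11.44. Its I3C values were 11.11, 10.61, 11.10, 10.98 and 11.06. The groups did not overlap, with 0.23 between the lowest vehicle and the highest I3C value, and I3C 2 lay well below the other I3C arrays. The fall was 0.53 ± 0.10 (SE, limma adjusted p = 0.0111), to 69.3% of the vehicle level, with a 95% interval from -0.76 to -0.30. Without I3C 2 the difference was -0.44 and was still called, as it was without each other array (limma adjusted p from 0.0125 to 0.0339). With the GAPDH gap in the model the difference was larger, -0.72 ± 0.16 (SE), and did not pass (limma adjusted p = 0.0667).

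Apoa1, which encodes the main protein of HDL, was the member that rose. Its vehicle values were 13.81, 13.76, 13.59, 13.62 and 13.87. Its I3C values were 14.08, 14.10, 14.01, 14.22 and 14.11. Every I3C liver lay above every vehicle liver, and the narrowest gap between the groups was 0.14. The group mean was 13.73 ± 0.12 (SD, n = 5) after vehicle and 14.10 ± 0.08 (SD, n = 5) after I3C. The rise was 0.38 ± 0.07 (SE, limma adjusted p = 0.00883), 1.30-fold, with a 95% interval from 0.22 to 0.53. The call was kept without any 1 array (0.34 to 0.41). It ended with the GAPDH gap in the model at nearly the same size (0.42 ± 0.12, SE, limma adjusted p = 0.126). With the beta-actin gap it ended at a smaller size (0.25 ± 0.08, SE, limma adjusted p = 0.134). Deviations of Apoa1 from its group means correlated at -0.86 with those of the beta-actin gap and at 0.2 with those of the GAPDH gap. The part of RNA quality in the rise was not tested. The Apoa1 probe set stood at the 99.8th percentile of vehicle levels, where such arrays compress differences.

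On GRCr8 chromosome 8 Apoa1 is followed directly by Apoc3, Apoa4 and Apoa5 in the gene order, the cluster that mammals share, and none of these 3 neighbours passed the test. Apoc3, the lipase-restraining apolipoprotein, had vehicle values of 14.62, 14.59, 14.60, 14.59 and 14.61 and I3C values of 14.44, 14.46, 14.52, 14.57 and 14.48. All I3C values were lower, by as little as 0.02, and the difference was -0.11 ± 0.05 (SE, limma adjusted p = 0.37). It is among the brightest genes of the array and its vehicle SD was 0.01, so that the SE given by limma rests mainly on the spread of the other probe sets.

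Apoa4, a lipid-carrying apolipoprotein of gut and rat liver, had vehicle values of 12.56, 12.56, 12.41, 12.21 and 12.45. Its I3C values were 12.36, 12.17, 12.22, 12.72 and 13.00. I3C 4 and I3C 5 lay above all vehicle livers and I3C 2 below all of them, so the I3C group straddled the vehicle group. The difference of 0.06 ± 0.14 (SE, limma adjusted p = 0.921) has a 95% interval from -0.26 to 0.37, and without I3C 5 it was -0.07. Apoa5, the activator of lipoprotein lipase, ranged from 13.06 through a median of 13.09 to 13.33 in vehicle and from 12.94 through 13.04 to 13.28 in I3C livers. The groups overlapped and differed by -0.06 ± 0.08 (SE, limma adjusted p = 0.81), with a 95% interval from -0.23 to 0.11.

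Differences between members within an array, where a scale common to the array cancels, are given as a description with no test, since these pairs were picked with the values known and set called genes against uncalled ones. In vehicle livers Apoa1 minus Apoc3 was -0.87 ± 0.11 (SD, n = 5), and in I3C livers it was -0.39 ± 0.07 (SD, n = 5). Apoa1 minus Apoa5 had means of 0.59 after vehicle and 1.03 after I3C. Apoa1 minus Apoa4 had means of 1.29 ± 0.11 and 1.61 ± 0.32 (SD, n = 5), and its groups overlapped. Lipc minus Lpl, the pair of lipases, had a vehicle mean of 5.77 ± 0.24 (SD, n = 5) and an I3C mean of 5.15 ± 0.18 (SD, n = 5). Apoc3 lies near the top of the array's range, and these differences were not fitted with the GAPDH or beta-actin gap.

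The 2 genes that start a VLDL particle did not pass. Apob, the structural protein of VLDL, had vehicle values of 14.22, 14.23, 14.31, 14.25 and 14.16 and I3C values of 14.16, 14.12, 14.16, 14.15 and 14.14 on its brighter probe set. No I3C value exceeded a vehicle value, but the lowest vehicle array and the highest I3C arrays met at 14.16. The difference was -0.09 ± 0.05 (SE, limma adjusted p = 0.488), with a 95% interval from -0.21 to 0.03. The second Apob probe set was far dimmer, with a vehicle mean of 6.72 ± 0.20 (SD, n = 5) and an I3C mean of 6.76 ± 0.12 (SD, n = 5), and differed by 0.03 ± 0.10 (SE, limma adjusted p = 0.926), with a 95% interval from -0.18 to 0.25.

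Mttp, the lipid transfer factor that loads apolipoprotein B, had vehicle values of 12.45, 12.43, 12.39, 12.35 and 12.20. Its I3C values were 12.01, 12.22, 12.29, 12.06 and 12.48. The groups overlapped, with I3C 1 and I3C 4 below all vehicle arrays and I3C 5 above them. The difference was -0.15 ± 0.09 (SE, limma adjusted p = 0.484), with a 95% interval from -0.35 to 0.05.

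**Figure D3:**
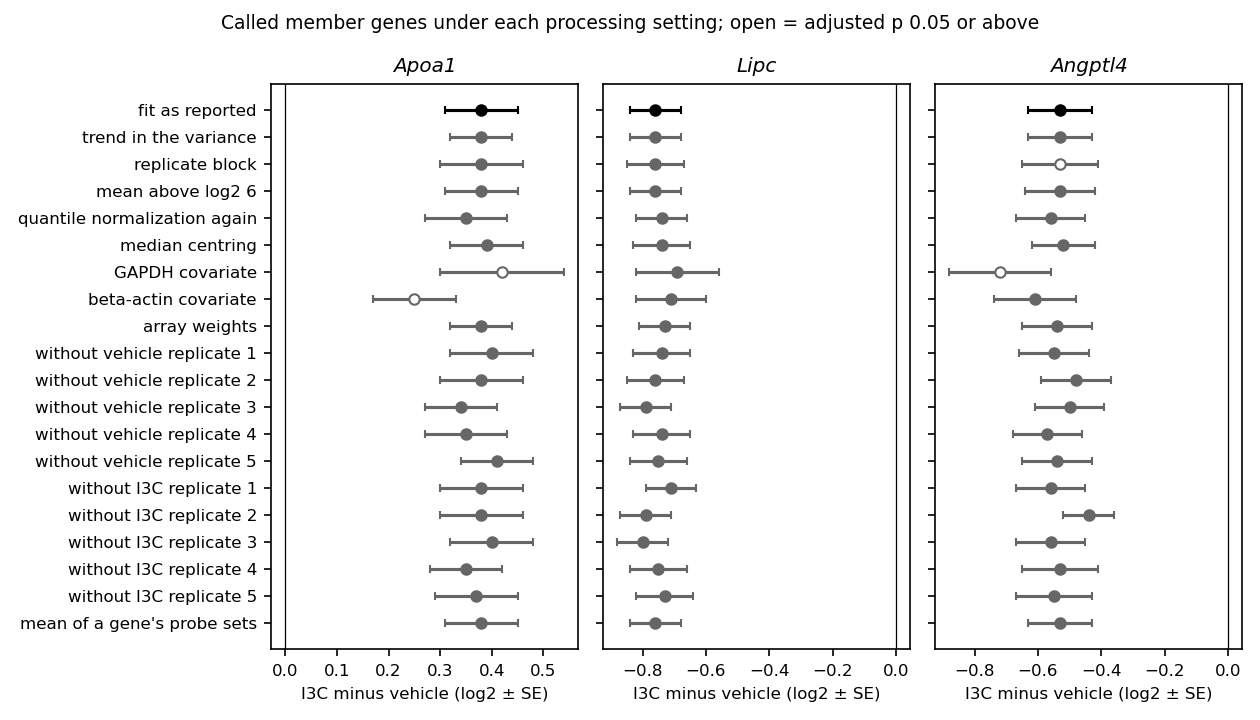
Difference between I3C and vehicle livers (log2 ± SE) for the 3 called members under each processing setting, one row per setting. Filled points have an adjusted p under 0.05. All points of a gene lie on one side of 0: Lipc is filled in every row, Apoa1 is open with the GAPDH and the beta-actin covariate, and Angptl4 is open with the replicate block and the GAPDH covariate.

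The other genes of the pathway come from lists drawn up with earlier results of these data known, and their counts stand beside the 6.43% of all genes called, with no test of the difference. Creb3l3 and some other genes stand in more than 1 list. Of 9 other measured apolipoproteins 0 passed limma, and by unadjusted p under 0.05 there was 1 lower gene and 0 higher. Their median difference was -0.03. The lower gene was Apom, an HDL protein (-0.23 ± 0.07, SE, limma adjusted p = 0.116), with no overlap between groups. Apoe, the ligand for remnant uptake, had means of 14.62 ± 0.03 (SD, n = 5) after vehicle and 14.61 ± 0.05 (SD, n = 5) after I3C. Apoa2, the second protein of HDL, had means of 14.29 ± 0.03 (SD, n = 5) after vehicle and 14.37 ± 0.03 (SD, n = 5) after I3C, with no overlap but a difference of only 0.07 ± 0.05 (SE, limma adjusted p = 0.585).

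Among 19 other factors of lipoprotein assembly and secretion 2 rose, 2 fell and 15 did not pass, with a median difference of 0.03. Tm6sf2, an endoplasmic reticulum protein needed to load VLDL with lipid, was 9.34, 9.19, 9.38, 8.97 and 9.42 in vehicle livers and 9.95, 9.95, 9.72, 9.75 and 10.21 in I3C livers. All I3C values were higher, and Tm6sf2 rose by 0.66 ± 0.11 (SE, limma adjusted p = 0.0035). Sar1b, the GTPase that buds transport vesicles from the endoplasmic reticulum, rose by 0.36 ± 0.07 (SE, limma adjusted p = 0.00724), also with no overlap. Dgat2, which makes triglyceride, fell by 0.49 ± 0.09 (SE), and Aadac, a lipid esterase of the endoplasmic reticulum, by 0.55 ± 0.12 (SE). All 4 were called without any 1 array. With the replicate number as a block in the model Aadac was not called (limma adjusted p = 0.0595). With the GAPDH gap in the model only Aadac of the 4 was called (-0.88 ± 0.16, SE, limma adjusted p = 0.023), while Tm6sf2 was at 0.80 ± 0.18 (SE, limma adjusted p = 0.0551), Sar1b at 0.23 ± 0.10 (SE) and Dgat2 at -0.33 ± 0.13 (SE). With the beta-actin gap Aadac was at -0.43 and not called (limma adjusted p = 0.177), and the other 3 were called.

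Of 18 other lipases, their partners and regulators 1 rose, 1 fell and 16 did not pass, with a median difference of -0.08. Sdc1, the heparan sulfate proteoglycan by which hepatocytes take up triglyceride-rich remnants, was 10.43, 10.26, 10.53, 10.36 and 10.85 in vehicle livers and 10.01, 9.87, 10.01, 10.06 and 9.88 in I3C livers. All I3C values were lower, and Sdc1 fell by 0.52 ± 0.10 (SE, limma adjusted p = 0.0094). The call held without any 1 array, and with the GAPDH gap the difference was -0.23 ± 0.13 (SE, limma adjusted p = 0.437). Pnpla2, the lipase of stored triglyceride, rose by 0.42 ± 0.11 (SE) at an adjusted p of 0.0495 in limma, and was called without only 2 of the 10 arrays, vehicle 2 and I3C 3. With the GAPDH gap it was at 0.25 and with the beta-actin gap at 0.30, and was called with neither. Of 13 genes of lipoprotein uptake and HDL remodelling 0 rose and 1 fell, with a median difference of -0.19 and 11 lower. The fallen gene was Lrp2, an endocytic receptor (-0.37 ± 0.09, SE, limma adjusted p = 0.031). It was not called without vehicle 2, vehicle 3, vehicle 4, I3C 1, I3C 2 or I3C 5, and without vehicle 5 the list had 2 called genes. With either gap in the model 0 of the list was called. Lcat, which esterifies the cholesterol of HDL, differed by -0.13 ± 0.07 (SE, limma adjusted p = 0.344), and Lrp1, a remnant receptor, by -0.36 ± 0.11 (SE, limma adjusted p = 0.0998).

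Among 40 transcription factors known to act on one or more of the member genes 5 rose, 4 fell and 31 did not pass, with a median difference of -0.09. Hnf4a, the liver receptor that drives several apolipoprotein genes, Lipc and Mttp, is named here with its value already known: it was 12.48 in vehicle and 12.47 in I3C livers and did not pass limma (-0.01 ± 0.07, SE, with a 95% interval from -0.17 to 0.15). Cebpb rose by 0.69 ± 0.08 (SE) and kept its call with the GAPDH gap (0.71 ± 0.14, SE, limma adjusted p = 0.0382). Nr0b2, a co-repressor of nuclear receptors, rose by 1.17 ± 0.16 (SE) and Ahr, the receptor for I3C products, by 1.02 ± 0.13 (SE), and the lipogenic Srebf1 fell by 0.62 ± 0.13 (SE). With the GAPDH gap these 3 did not pass (0.87, 0.65 and -0.29), and with the beta-actin gap Srebf1 did not (-0.41), nor did Ppara and Nr2f6, described next. Xbp1, of the secretory stress response, rose by 0.56 and Ppara itself by 0.43. Nr1h4, the bile acid receptor, fell by 0.54, Foxo3 by 0.45 and Nr2f6 by 0.34. With the GAPDH gap 2 of the 40 were called, Cebpb and Nr1h4. Ppara was called without only vehicle 1 or I3C 3, and Nr2f6 without only vehicle 5.

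Of 26 measured PPAR alpha targets other than Angptl4, 2 rose, 3 fell and 21 did not pass, and the median difference was -0.06. Fgf21, a hormone of fasting, rose by 2.56 ± 0.24 (SE) and Pdk4, which restrains pyruvate oxidation, by 0.82 ± 0.17 (SE), while Hadha, of mitochondrial fatty acid oxidation, fell by 0.33 ± 0.06 (SE). Cyp4a1, a fatty acid hydroxylase, fell by 0.32 ± 0.08 (SE), a call that held without only vehicle 1 or vehicle 3. Angptl4 at -0.53 differed in sign from Fgf21 and Pdk4 and had the sign of the 3 fallen targets. Of the 26 targets 15 were lower and 11 higher. Acadm, of the same oxidation pathway as Hadha, fell by 0.27, though not without vehicle 3 or I3C 2, nor with either the GAPDH or the beta-actin gap. Without I3C 2, 3 genes of the list were called, and with either the GAPDH or the beta-actin gap 2. One of the 2 called with the GAPDH gap was not called without it. Fgf21 was called with both gaps (2.81 and 2.43), Hadha with the beta-actin gap, and Pdk4 and Cyp4a1 with neither.

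**Figure D4:**
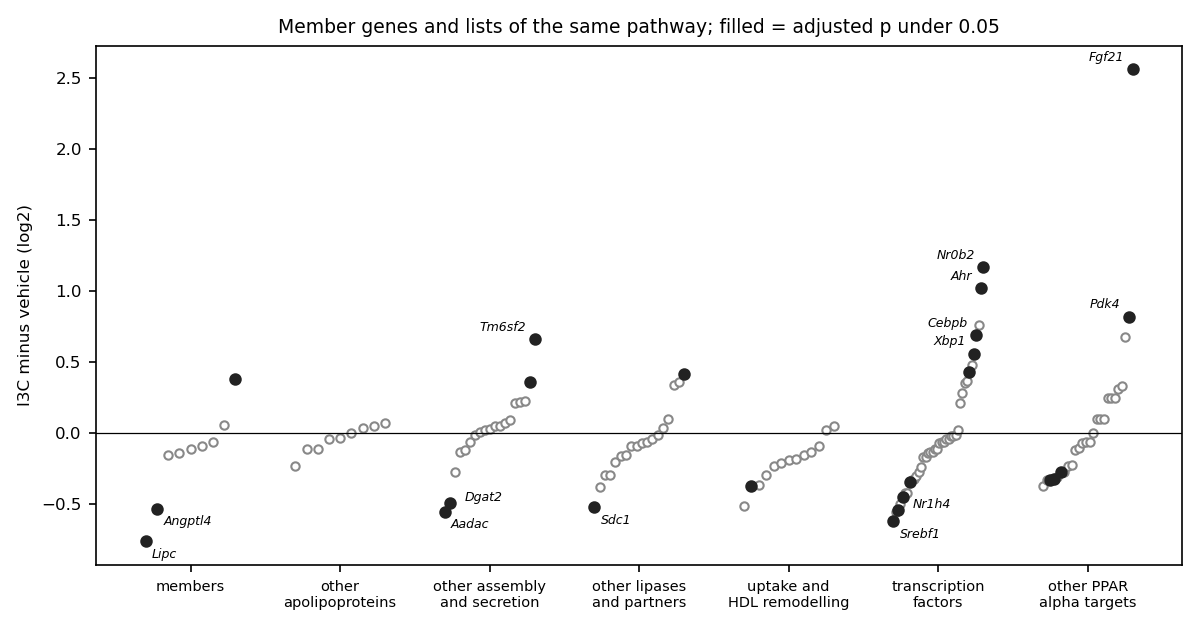
Difference between I3C and vehicle livers (log2) for the 9 members and the 6 lists of the same pathway, each point a gene, ordered by difference within its list. Filled points have an adjusted p under 0.05. Other apolipoproteins lie within -0.23 and 0.07 with 0 filled, whereas the transcription factors hold 9 filled points and the PPAR alpha targets reach 2.56 (Fgf21).

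Markers of other tissues and cells were checked because Apoa4 is also an intestinal gene and Lpl and Angptl4 are also genes of fat. Of 8 adipocyte markers 0 passed limma (1 higher and 0 lower by unadjusted p under 0.05), with a mean level of 6.25 to 6.40 in vehicle and 6.27 to 6.45 in I3C arrays. Of 7 intestinal markers besides Apoa4, 1 rose, Fabp2, a fatty acid binding protein (0.61 ± 0.15, SE, limma adjusted p = 0.0363, called without only vehicle 3, vehicle 5 or I3C 4, and not with the beta-actin gap), and the list's mean level was 5.64 to 6.11 in vehicle and 5.87 to 5.97 in I3C arrays. For skeletal muscle (8 genes), bile duct (6), lymphocytes (7) and endothelium (7) 0 passed limma. By unadjusted p under 0.05 there were 0, 0, 1 and 2 lower genes in these lists, in that order, and 0 higher. All 7 endothelial genes were lower, with a mean level of 9.60 to 9.75 in vehicle and 9.45 to 9.62 in I3C arrays. Of 12 stellate cell genes 1 rose and 2 fell (Rgs5 at 1.33, Lrat at -0.51, Colec11 at -0.34). In that list 9 were lower, with a median difference of -0.13, and by unadjusted p under 0.05 there were 4 lower and 1 higher. Of 10 pancreatic genes 1 fell, Cpa1 at -2.10 ± 0.28 (SE), and by unadjusted p under 0.05 there were 2 lower and 1 higher. Cpa1 had a vehicle mean of 11.54. The mean level of the pancreatic list, Cpa1 included, was 6.02 to 6.25 in vehicle and 5.81 to 6.04 in I3C arrays. With the GAPDH gap Rgs5, Lrat, Colec11 and Cpa1 were not called, nor was Lrat with the beta-actin gap. The part of these cells in the members' values was not tested.

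The genes most alike to the called members were sought by Pearson correlation of deviations from the group means over the 10 arrays, a description that uses no difference between the groups. For Lipc these were Hyi (0.92), Shisa5 (0.90) and Smagp (0.88). Of the 3, Smagp, a small membrane protein, fell with Lipc (-0.61 ± 0.08, SE, limma adjusted p = 0.000549). For Angptl4 they were Arhgef37 (0.94), Slc7a13 (0.91) and Klhl32 (0.90), and for Apoa1 they were Pcp2 (0.96), Tekt5l1 (0.95) and Grwd1 (0.95), of which 0 passed limma. Among the members themselves the 36 pairs had correlations from -0.76 (Apoa1 with Apob) to 0.66 (Apoa5 with Apob), with a median of 0.03 and 18 above 0. Some members hardly varied within a group (Apoc3 had a vehicle SD of 0.01), so these values cannot show whether the members vary together. Such values come from 10 arrays that share normalization, and the highest of many genes are selected for height. Deviations of Apoa1 and Apob also correlated with those of the beta-actin gap, at -0.86 and 0.45.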

How the data were processed

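RNA of 10 rat liver samples was measured on whole-genome 3' GeneChip arrays, 1 array per sample. The deposited table holds log2 values made by the authors with RMA, per the submitters' processing notes, with no version given in the sources used here. This method equalises the arrays' distributions, removing any shift common to all genes. Such arrays compress the folds of bright probe sets.

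Probe sets were named by the platform annotation, with symbols renewed by Entrez ID (20758 probe sets) from RefSeq on GRCr8. A single gene was annotated to 20826 of 31042 probe sets, several to 436 and no gene to 9780, and a gene was followed through its brightest single-gene probe set. The test was limma's (version 3.58.1 under R 4.3.3, with lmFit and eBayes, no trend, two-sided), adjusted over 31042 probe sets, and the fit was tested on simulated arrays. Single values were compared by exact permutation over 252 splits. The number of arrays limits the precision. Members, lists, alternatives and motifs were chosen with earlier results of these data known. By rule the text names all members, up to 4 called genes by size from each list (the 2 brightest where fewer than 2 passed), and the 3 genes most alike to each called member. Apom, Lrp2, Hnf4a, Xbp1, Ppara, Nr1h4, Foxo3, Nr2f6, Acadm and Tat fall outside it and were chosen after their values were seen. Alternatives were a variance trend, a replicate block, a filter at log2 6, renewed normalization, median centring, both RNA quality covariates, array weights, the mean of probe sets and leaving out each array.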

Additional observations from a re-analysis of the deposited data

Results flagged for a closer look

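Angptl4 on array I3C 2 was at 10.61, far from the nearest other I3C value of 10.98: the gap was 0.738 of the group's range, above Dixon's limit of 0.71 for 5 samples. It was the only value so marked among 18 groups (9 genes in 2 groups), and chance marks about 1 group in 20. Without that array Angptl4 differed by -0.44 and was still called.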

How the results depend on the processing

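Of the 3 called members Lipc kept its direction and its call under all 19 alternatives (-0.80 to -0.69). Apoa1 and Angptl4 kept their direction in all 19 and lost the call in 2 each: Apoa1 at 0.42 with the GAPDH gap and 0.25 with the beta-actin gap, Angptl4 at -0.72 with the GAPDH gap and at -0.53 with the replicate number as a block (limma adjusted p = 0.0504). The cause was not tested. None of the other 6 members was called under any of these alternatives. The count of called members was 3 without any 1 array and 1, of genes and of probe sets alike, with the GAPDH gap, where 228 of all genes were called against 914. With that gap the assembly list had 1 called gene, the lipase list 1, the uptake list 0, the transcription factors 2 and the PPAR alpha targets 2. The 1 of the lipase list was neither Sdc1 nor Pnpla2. Of the 2 PPAR alpha targets only Fgf21 was also called without the gap. With the beta-actin gap the uptake list had 0 and the PPAR alpha targets 2. The lipase list had 1 with a variance trend, renewed quantile normalization or median centring, and the uptake list had 2 by the mean of probe sets. Replicate numbers did not pair the samples (correlations of same-numbered arrays from -0.28 to 0.22, and 2 of 10 arrays closest to their own number). As a block they left 647 genes called, 3 in the assembly list, 1 in the lipase list and 3 among PPAR alpha targets. Besides Angptl4, the genes named above that lost their call with the block were Aadac, Pnpla2, Cyp4a1, Acadm, Nr2f6, C1qa and Colec11. With 1 array left out the counts were 4 to 5 for assembly, 1 to 2 for lipases, 0 to 2 for uptake, 7 to 10 for transcription factors and 3 to 5 for PPAR alpha targets. The within-array differences, added after the data were seen, kept their direction without any 1 array and under renewed quantile normalization.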
